A study of Mus musculus with 24 samples.

Results

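The genes described here encode the nuclear subunits of the 4 respiratory chain complexes and of ATP synthase, measured in mouse gastrocnemius, a mixed calf muscle made up mainly of fast fibres. They were chosen by name: a probe belonged to the set when the gene name in the array files, or its current symbol, began with Nduf followed by a subunit letter and a number, with Uqcr or with Atp5, was Sdha to Sdhd, or was one of the lettered Cox4 to Cox8 names. A probe also had to reach a mean signal of at least 2 times its local background in both channels, and the brightest probe stood for each gene. Of 83 genes with a matching name, 81 passed, among 11518 gene names and 15958 probes that passed in all. Of these, 79 are subunits, 35 of complex I, 4 of complex II, 8 of complex III, 15 of complex IV and 17 of ATP synthase, and Dmac2l and Ndufaf2 matched only through an older name and were left out of the counts below. The genes not kept were Cox8c, whose signal over background was 1.69 in Cy5 and 1.5 in Cy3, and Cox7b2, at 1.34 and 1.37.

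The respiratory chain sits in the inner mitochondrial membrane. Complex I takes electrons from NADH and complex II from succinate, ubiquinone carries them to complex III, cytochrome c carries them on to complex IV, and complex IV passes them to oxygen, while complexes I, III and IV pump protons that drive ATP synthase. Most subunits are encoded in the nucleus and a smaller number in mitochondrial DNA, and several complex IV subunits exist as a form of heart and skeletal muscle and a form found in most tissues. None of the 13 protein-coding genes of mitochondrial DNA had a probe that could be named here, so only the nuclear part of the chain is described.

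All animals were male C57BL/6N mice, put on their diets at 3 months of age and kept on them for 8 weeks. The cHF group ate a high-fat diet with 35% lipid by weight. In the cHF+F group a marine n-3 fatty acid concentrate, of which 46% was DHA and 14% EPA, took the place of 15% of the dietary lipids, and the cHF+ROSI group ate cHF with 10 mg per kg of rosiglitazone, a thiazolidinedione that activates PPARγ. Every mouse, controls included, was then fasted for 10 h by day and given chow overnight before it was killed the next morning, so the muscle was sampled in the refed state. Each of the 24 arrays held the Cy5-labelled RNA of 1 mouse, 8 mice per group, against a Cy3-labelled pool that also held RNA of mice on a higher rosiglitazone dose. Values below are log2 (Cy5/Cy3), the level in 1 mouse relative to the pool, so levels of different genes cannot be set against each other. Differences between groups are differences of these log2 values, given with their standard error (SE). Replicate number and slide coincide, each slide held 1 array of each diet, and a diet always lay at the same place on its slide, so that diet and place cannot be told apart. Spots well above background made up 30.4 to 61.3% of the Cy5 spots on 23 arrays and 91.1% on the cHF+ROSI array of replicate 4. All 5 skeletal muscle markers looked for (Acta1, Ckm, Mb, Ttn and Des) were detected. The transcripts come from whole muscle, in which fewer fibres of a type and less RNA per fibre cannot be told apart.

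The subunit probes were among the brightest on the arrays. Of the kept subunits and the 2 genes named above, 73 lay in the brightest 10% of kept probes and 44 in the brightest 2%, and no spot of theirs was saturated. Cox6a2 and Cox7a1, the muscle forms of complex IV subunits 6a and 7a, had probes at percentile 99.9 of brightness. Cox6b2, known as the testis form of subunit 6b, was the dimmest, at percentile 6.54. In the cHF group the median SD between mice over the 79 subunits was 0.138 at a loess span of 0.3, against 0.136 over all kept probes. In the cHF+F group it was 0.105 against 0.134, and in the cHF+ROSI group 0.244 against 0.153. At a span of 0.1 the subunit medians were 0.127, 0.108 and 0.132, so that the cHF+ROSI value depended on the span. Atp5g3, one of 3 genes for the identical mature c subunit of ATP synthase, varied most, with a pooled SD of 0.43, and its values ran from -0.75 to 1.02 in the cHF+ROSI group.

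The promoters of the subunits, as RefSeq gives them for the build GRCm38.p6, were read as a feature that the naming rule did not use. The windows held 300 bases, 250 before and 50 after the annotated start, and 67 of the 79 subunits had an entry. Letters were searched on both strands, and matches of different motifs were allowed to overlap. The palindromic core bound by NRF-1, seen as the longest run of capitals in Cox6a1 below, occurred in 5 subunits, Atp5g2, Atp5k, Cox6a1, Ndufa11 and Uqcrc1, which is 7.46% against 1.07% of all 27025 genes in the table. CCGGAAG, an ETS sequence of the kind bound by GABP, occurred in 17 or 25.4% (all genes, 9.93%). AAGATGGCG, read by YY1, occurred in 7 or 10.4% (1.64%), and TNAAGGTCA, read by the oestrogen-related receptors, in 3 or 4.48% (1.43%), namely Atp5g3, Ndufb4 and Sdhd. The shares were closer for CCAAT (43.3% and 41.1%), for GGGCGG (40.3% and 38.2%), for CANNTG, the E box (68.7% and 75%), and for TATAAA (10.4% and 15.7%). These are letter matches and not measured binding, and the shares among genes as bright as the subunits were not read. The 250 bases before the start are printed for 5 genes: Cox8b and Cox8a, a muscle and a general form compared below, Cox6a1, which held the most kinds of motif among those shown, and Uqcrc1 and Ndufv1, which had the smallest p-values in the rosiglitazone comparison at span 0.3, a setting explained below. Capitals mark the motifs just listed.
Cox8b, chr7:140900447-140900696, minus strand: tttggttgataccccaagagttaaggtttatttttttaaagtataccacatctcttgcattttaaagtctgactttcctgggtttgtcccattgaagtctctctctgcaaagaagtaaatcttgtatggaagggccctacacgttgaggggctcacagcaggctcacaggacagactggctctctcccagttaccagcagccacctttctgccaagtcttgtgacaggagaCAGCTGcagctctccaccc
Cox8a, chr19:7217617-7217866, minus strand: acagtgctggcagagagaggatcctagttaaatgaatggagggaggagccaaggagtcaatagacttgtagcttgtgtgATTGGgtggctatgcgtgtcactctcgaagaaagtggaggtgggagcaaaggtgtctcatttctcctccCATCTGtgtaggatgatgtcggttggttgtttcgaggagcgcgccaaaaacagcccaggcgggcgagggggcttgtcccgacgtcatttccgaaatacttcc
Cox6a1, chr5:115348959-115349208, minus strand: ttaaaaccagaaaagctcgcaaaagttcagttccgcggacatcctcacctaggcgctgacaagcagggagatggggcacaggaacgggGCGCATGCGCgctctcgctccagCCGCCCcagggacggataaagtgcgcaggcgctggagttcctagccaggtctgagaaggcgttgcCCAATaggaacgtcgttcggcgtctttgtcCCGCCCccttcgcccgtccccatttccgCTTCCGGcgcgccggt
Uqcrc1, chr9:108936398-108936647, plus strand: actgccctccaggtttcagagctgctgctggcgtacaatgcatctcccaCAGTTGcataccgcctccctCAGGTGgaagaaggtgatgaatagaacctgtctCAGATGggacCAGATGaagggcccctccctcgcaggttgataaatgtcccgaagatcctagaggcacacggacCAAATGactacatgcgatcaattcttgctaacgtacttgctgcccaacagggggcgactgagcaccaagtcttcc
Ndufv1, chr19:4012756-4013005, minus strand: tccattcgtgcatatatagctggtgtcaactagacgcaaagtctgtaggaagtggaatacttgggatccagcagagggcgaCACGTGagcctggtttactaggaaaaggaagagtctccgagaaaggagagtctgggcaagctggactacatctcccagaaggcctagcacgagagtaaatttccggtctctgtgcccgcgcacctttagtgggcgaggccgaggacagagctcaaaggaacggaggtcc
The Cox6a1 stretch holds the NRF-1 core 162 bases before the start, a CCAAT box at 74 and the ETS sequence at 16, together with 2 GC boxes. The stretch of Cox8b, a muscle form, holds an E box and none of these. The Uqcrc1 stretch holds 5 E boxes, and its NRF-1 core lies after the annotated start. The Ndufv1 stretch holds 1 E box, 169 bases before the start.

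In the subunit medians a single array stood apart at a loess span of 0.3. With a loess curve of span 0.3, the share of probes used for each point of the fitted dye trend over brightness, the median over the 79 subunits was between -0.16 and 0.15 on 23 arrays and -0.50 on the cHF+ROSI array of replicate 3. On that array complex III stood at -0.75, ATP synthase at -0.64, complex I at -0.45, complex IV at -0.44 and complex II at -0.16. The 269 other probes in the brightest 2%, where 44 of the 81 kept genes lay, had a median of -0.71 there and between -0.25 and 0.11 elsewhere. The part of brightness in the low subunit values was not tested. With a span of 0.1, which follows the trend more closely at the bright end, the subunit median of the array was 0.045 and that of the other bright probes -0.013. The plot of the complex medians shows the array in question, and the plot of bright probes sets both medians side by side. The subunit counts and medians of each comparison are therefore given at both spans and without the cHF+ROSI array of replicate 3. The cHF+ROSI array of replicate 4, with 91.1% of Cy5 spots well above background, differed in another way. Its median over all kept probes was -0.058 at span 0.3 and -0.060 at span 0.1. At span 0.1 it also had the lowest subunit median, -0.060. It was left out only where each array was left out in turn.

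**Figure D1:**
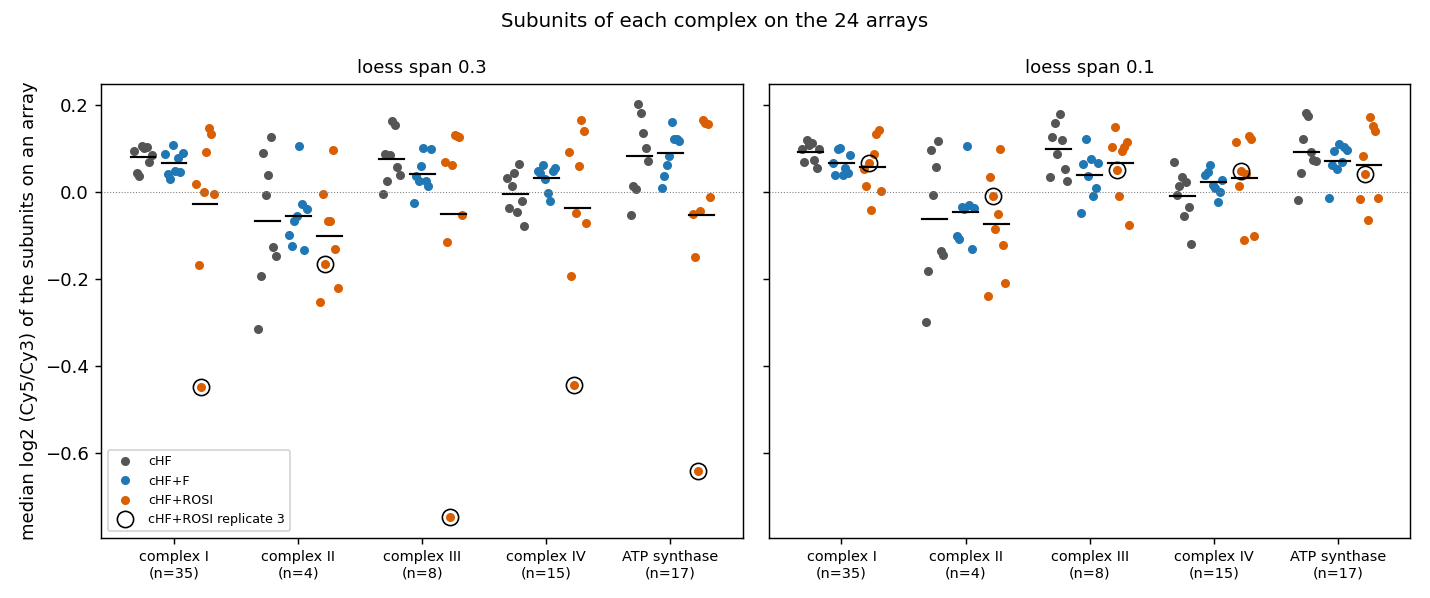
Median log2 (Cy5/Cy3) of the subunits of each complex on each of the 24 arrays, by diet, at loess spans 0.3 and 0.1. At span 0.3 the cHF+ROSI array of replicate 3 lies low at -0.748 for complex III and -0.642 for ATP synthase, but not for complex II, where it is at -0.165 and the cHF array of replicate 1 at -0.316. At span 0.1 it lies among the other arrays.

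**Figure D2:**
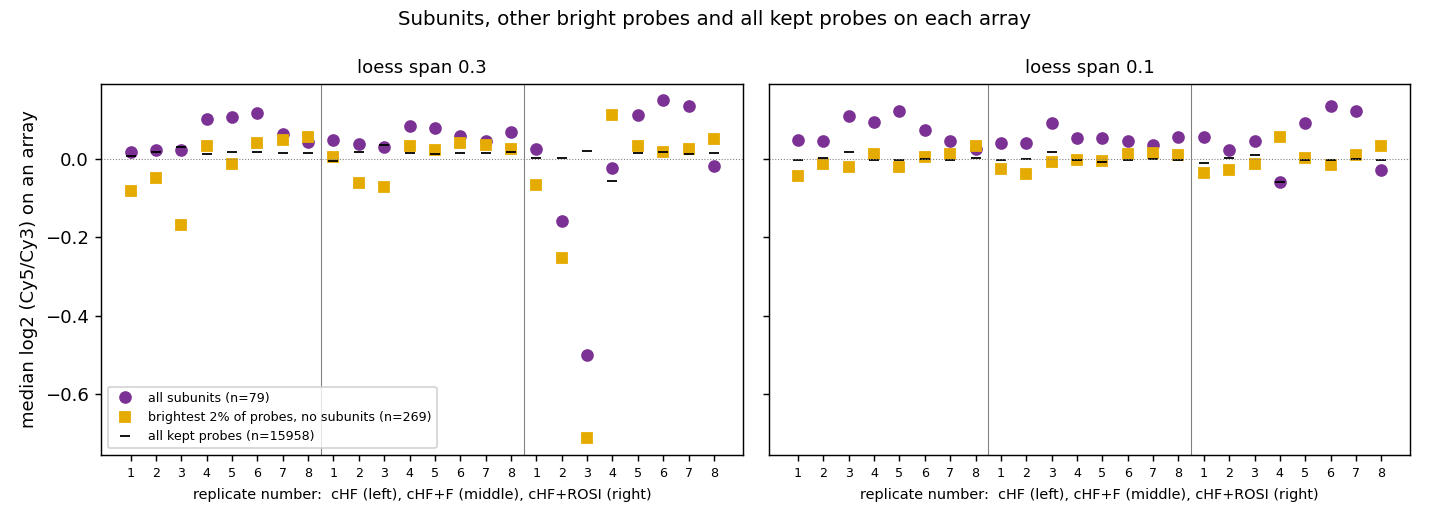
Median log2 (Cy5/Cy3) on each array of the 79 subunits, of the 269 other probes in the brightest 2% and of all kept probes, by diet and replicate number, at both spans. At span 0.3 the cHF+ROSI array of replicate 3 lies at -0.50 for the subunits and -0.71 for the other bright probes, apart from the other 23 arrays.

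The comparison of cHF+F with cHF asked how the n-3 fatty acids affected the muscle in the refed state. In limma, no subunit passed the adjusted threshold of 0.05, and neither did any other probe (0% of 15958 called). Of the 79 subunits 46 were lower and 33 higher in cHF+F, with a median log2 difference of -0.013, against 49.6% lower over all probes. At span 0.1 the counts were 49 lower and 30 higher, against 49.2% lower over all probes, and the median -0.022. An unadjusted p under 0.05 was found for 4 of the 79 subunits, beside 6.86% of all probes. At span 0.1 there were 7, beside 7.53%. The array of cHF+ROSI replicate 3 holds no mouse of these diets, and without it the differences were the same while the shared estimate of the spread was not: 5 subunits then had an unadjusted p under 0.05 at span 0.3 (6.87% of all probes). With the slide as a block there were 6, none called, beside 12.1% of all probes (0.0376% called). Within the 8 slides the subunit median ran from -0.048 to 0.035 at span 0.3 and was below 0 on 5 of them. The median SE of a difference was 0.0862, and 77 of 79 subunits lay within 0.2 of no difference. Complex medians were -0.016 for complex I, 0.0093 for complex II, -0.019 for complex III, -0.013 for complex IV and -0.0077 for ATP synthase at span 0.3, and -0.026, -0.0033, -0.041, -0.016 and -0.021 in the same order at span 0.1.

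The subunits with the largest positive differences between cHF+F and cHF belonged to complex IV. Cox6a2, the muscle form of subunit 6a, ran from -0.31 through a median of -0.19 to 0.063 in cHF and from -0.051 through 0.10 to 0.31 in cHF+F at span 0.1. Most cHF+F mice lay above most cHF mice, although the ranges overlapped. The difference was 0.25 with an SE of 0.0659 (unadjusted p = 0.000722, adjusted p = 0.269, limma), and the cHF+F array was the higher on 7 of 8 slides. At span 0.3 it was 0.29 with an SE of 0.126 (unadjusted p = 0.0276, adjusted p = 0.657, limma), higher on 8 of 8 slides, and the unadjusted p was 0.00209 without the cHF+ROSI array of replicate 3. Cox8b, the muscle form of subunit 8, ran from -0.29 through 0.012 to 0.20 in cHF and from -0.0035 through 0.19 to 0.44 in cHF+F at span 0.1. Its ranges overlapped too, and the cHF+F array was the higher on all 8 slides. Its difference was 0.20 (SE 0.0747, unadjusted p = 0.0126, adjusted p = 0.5, limma) and 0.21 at span 0.3 (unadjusted p = 0.0391, and 0.0108 without that array). Cox7a2, the general form of subunit 7a, had a difference of 0.17 at either span (unadjusted p = 0.0309 at span 0.3). Its highest cHF+F values, up to 0.51, came from a few mice, and the group median of 0.050 at span 0.1 lay inside the cHF range of -0.19 to 0.19. A second, dimmer Cox7a2 probe gave 0.14 at both spans. Cox7a1, the muscle form of the same subunit, pointed the other way, with -0.12 at span 0.3 and -0.16 at span 0.1 (unadjusted p = 0.453 and 0.0524), lower in cHF+F on 7 of 8 slides.

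Lower values in cHF+F were found in complexes III and I. Uqcrfs1, the Rieske iron-sulphur protein of complex III, ran from 0.074 through 0.24 to 0.45 in cHF and from -0.082 through 0.00048 to 0.34 in cHF+F at span 0.1. The ranges overlapped, and the cHF+F array was the lower on 8 of 8 slides. Its difference was -0.19 with an SE of 0.0692 at span 0.3 (unadjusted p = 0.0125, adjusted p = 0.568, limma) and -0.18 at span 0.1. Ndufv1, the complex I subunit that binds NADH and FMN, ran from -0.36 through 0.062 to 0.15 in cHF and from -0.43 through -0.13 to -0.023 in cHF+F at span 0.1. In both groups the lowest mouse was that of replicate 1, well below the rest of its group. The difference was -0.18 (SE 0.0675, unadjusted p = 0.0114, adjusted p = 0.499, limma), lower on 8 of 8 slides, and -0.16 at span 0.3 (unadjusted p = 0.0509, and 0.0243 without the cHF+ROSI array of replicate 3). Uqcrc1, a core protein of complex III, differed by -0.13 and Ndufa9, an accessory subunit of complex I, by -0.11 at span 0.1 (unadjusted p = 0.0404 and 0.039), and neither had an unadjusted p under 0.05 at span 0.3. All 4 Sdh subunits of complex II lay between -0.020 and 0.048 at span 0.3 and between -0.022 and 0.047 at span 0.1. The groups did not separate for any of the 79 subunits, while 11 of all kept probes, 0.0689%, had no overlap between cHF+F and cHF.

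Markers of fibre types and of other cell types were also measured. Of 11 slow fibre markers 10 were lower in cHF+F at span 0.3, with a median log2 difference of -0.52, against 49.6% of all probes lower. Of these markers 6 were lower with an unadjusted p under 0.05, beside 639 of all 15958 probes. At span 0.1 the number was 5, beside 690, and no slow marker was called. Their mean per array ran from -0.28 to 0.67 in cHF and from -0.98 to 0.32 in cHF+F, and all 11 were detected. The 11 fast fibre markers had a median of 0.044. Of the other cell types looked for, all 8 macrophage markers were lower in cHF+F (median -0.18, 3 with an unadjusted p under 0.05), as were all 6 endothelial markers (-0.16, 3 with an unadjusted p under 0.05, smallest adjusted p = 0.0774, limma). Their mean per array ran from -0.24 to 0.245 in cHF and from -0.67 to 0.20 in cHF+F for the macrophage list, and from -0.16 to 0.30 and from -0.35 to -0.011 for the endothelial list. The 5 kept liver markers, of 8 listed, were all higher in cHF+F (median 0.40), as were the 3 kept sperm markers, of 4 listed (0.10). None of these had an unadjusted p under 0.05. The ranges of the marker means per array overlapped between the diets, and the part of these cell types in the subunit values was not tested.

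**Figure D3:**
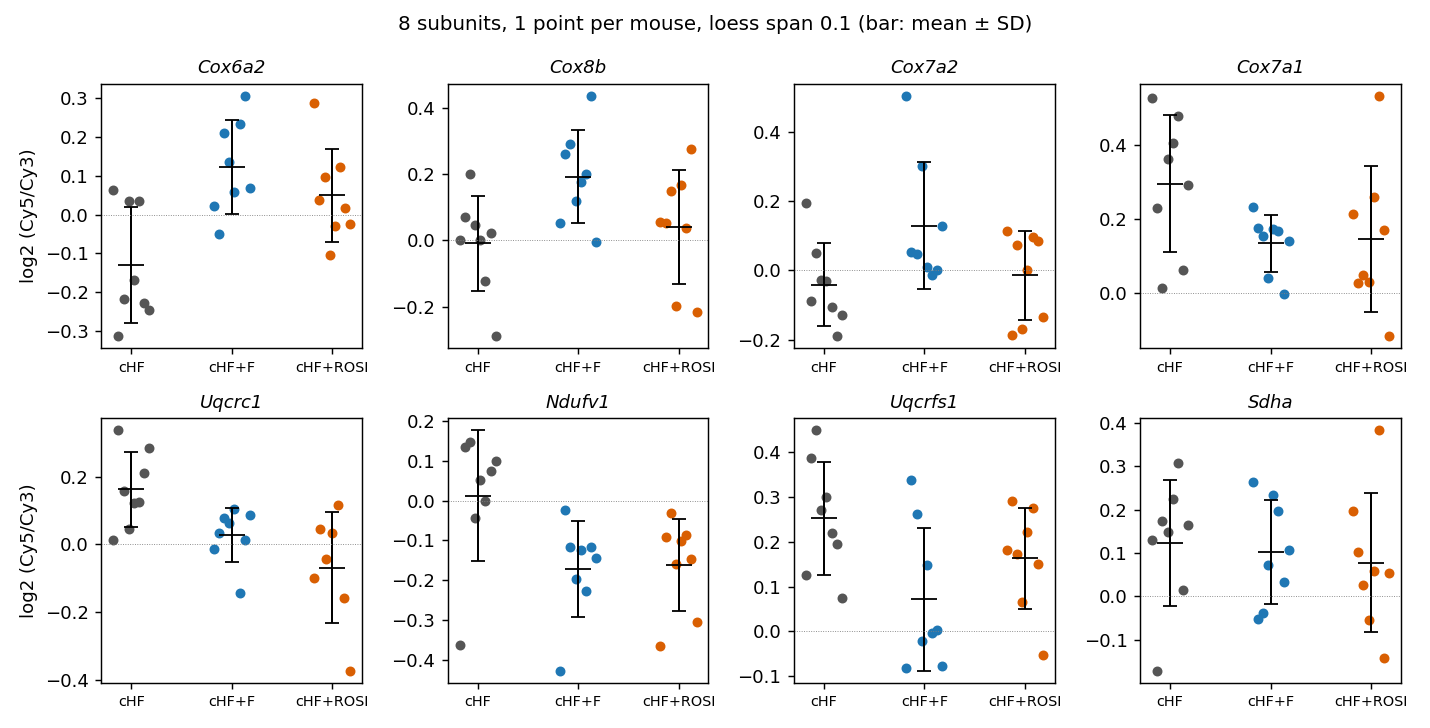
Log2 (Cy5/Cy3) of 8 subunits, 1 point per mouse, by diet, at loess span 0.1, with the mean and SD as bars. Groups overlap in all 8 genes, and Cox6a2 and Cox8b reach higher in cHF+F than in cHF. Uqcrc1 and Ndufv1 lie mostly lower in cHF+ROSI than in cHF, and Ndufv1 does so in cHF+F too.

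The comparison of cHF+ROSI with cHF asked for the effect of the low rosiglitazone dose. No subunit was called (limma, 0% of all probes called). At span 0.3, 68 of 79 subunits were lower in cHF+ROSI with a median of -0.10, against 54.7% lower over all probes, and 228 of the 269 other bright probes were lower too, with a median of -0.097. At span 0.1 the median was -0.030 with 57 lower (53.2% of all probes lower), and that of the other bright probes was -0.0021. Without the array of replicate 3 the medians were -0.042 at span 0.3 (61 lower, 57.3% of all probes lower) and -0.036 at span 0.1 (57 lower, 55.4% of all probes lower). An unadjusted p under 0.05 was found for 4 of 79 subunits at span 0.3, all lower, beside 4.7% of all probes in either direction and 3.01% lower. The count was 4 at span 0.1 (4.45%), of which 3 were lower (2.67%) and 1 higher (1.78%), and 2 without the array at span 0.3 (4.78%). With the slide as a block it was 23, none called, beside 9.55% of all probes. The same block on the Cy3 pool, which did not vary by diet, gave 29 of 79 beside 21.2% of all probes. Within the slides the subunit median ran from -0.52 to 0.072 at span 0.3 and from -0.18 to 0.091 at span 0.1, and was below 0 on 6 of 8 slides at either span. By complex, at span 0.1, 15 of 17 ATP synthase subunits were lower with a median of -0.052, 27 of 35 complex I subunits with -0.026 and 6 of 8 complex III subunits with -0.044, and 6 of 15 complex IV subunits were lower with a median of 0.026. At span 0.3 the same medians were -0.14, -0.099, -0.13 and -0.0037, and without the array of replicate 3 they were -0.053, -0.040, -0.045 and -0.0012. The median SE of a subunit's difference at span 0.1 was 0.0654. Whether the complexes differed from each other was not tested.

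Uqcrc1 and Ndufv1 had the smallest p-values in this comparison at span 0.3. Uqcrc1 ran from 0.012 through 0.14 to 0.34 in cHF and from -0.37 through -0.043 to 0.12 in cHF+ROSI at span 0.1, where 1 of the 8 cHF+ROSI spots, that of replicate 2, was left out as an outlier spot. The groups overlapped, and cHF+ROSI was the lower on each of the 7 slides that could be compared. The difference was -0.23 with an SE of 0.0643 (unadjusted p = 0.00139, adjusted p = 0.999, limma). At span 0.3 it was -0.32 (SE 0.1, unadjusted p = 0.00421, adjusted p = 0.996, limma), and -0.21 without the array of replicate 3 (unadjusted p = 0.00997). A second Uqcrc1 probe gave -0.25 at span 0.3 and -0.19 at span 0.1 (unadjusted p = 0.00161 and 0.0104). The first probe lies at chr9:108806516-108806575 in mm8, the build of the array files. Ndufv1 ran from -0.36 through -0.12 to -0.030 in cHF+ROSI at span 0.1, and every cHF+ROSI mouse lay below 0. Every cHF+F mouse did so as well, the highest at -0.023, and both comparisons with cHF used the same cHF arrays. The difference of cHF+ROSI from cHF was -0.17 with an SE of 0.0675 (unadjusted p = 0.0168, adjusted p = 0.999, limma), lower on 8 of 8 slides. It was -0.25 at span 0.3 (unadjusted p = 0.0042) and -0.19 without the array of replicate 3 (unadjusted p = 0.0121).

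Values of other subunits depended on the span. Atp5pb, the b subunit of the ATP synthase stalk, differed by -0.20 at span 0.3 (SE 0.0814, unadjusted p = 0.0199) and -0.11 at span 0.1 (unadjusted p = 0.0588). Ndufb6, an accessory subunit of the complex I membrane arm, differed by -0.12 at span 0.3 (unadjusted p = 0.0279) and -0.085 at span 0.1. Ndufb8, another of that arm, differed by -0.21 at span 0.3 (unadjusted p = 0.0539) and -0.11 at span 0.1 (unadjusted p = 0.022). A second Ndufb8 probe, dim at percentile 4.51, gave -0.0072 and -0.0056. Cox6a2 stood at 0.046 with an SE of 0.126 at span 0.3 and at 0.18 with an SE of 0.0659 at span 0.1 (unadjusted p = 0.0111, adjusted p = 0.999, limma). Its cHF+ROSI value of replicate 3 was -0.98 at span 0.3, and without it the span 0.3 difference was 0.17 (unadjusted p = 0.0605). The genes for the c subunit of ATP synthase, Atp5g1, Atp5g2 and Atp5g3, differed by -0.15, -0.14 and 0.046 at span 0.3. Without the array of replicate 3 these were -0.049, -0.072 and 0.19, and at span 0.1 they were -0.052, -0.071 and 0.11. A second, dimmer Atp5g2 probe gave 0.028 at span 0.3 and 0.047 at span 0.1. Complex II ran from -0.080 for Sdhb to 0.053 for Sdhc at span 0.3, from -0.043 to 0.034 without that array, and from -0.046 to 0.041 at span 0.1. Of all kept probes 3, or 0.0188%, did not overlap between the diets, and none of the 79 subunits was among them. The 11 slow fibre markers had a median of -0.22 (9 lower) at span 0.3 and -0.37 (10 lower) without the array of replicate 3, whose slow marker mean of 0.46 was the highest of its group. The 11 fast fibre markers had a median of -0.14 at span 0.3, 0.0057 without the array and 0.012 at span 0.1. All 6 endothelial markers were lower in cHF+ROSI at span 0.3 (median -0.16, 3 with an unadjusted p under 0.05). Over all probes 54.7% were lower, and 3.01% were lower with an unadjusted p under 0.05. All 5 kept liver markers were higher (median 0.69, 2 with an unadjusted p under 0.05), as were all 3 kept sperm markers (0.73, 3 with an unadjusted p under 0.05). Over all 15958 probes 270 were higher with an unadjusted p under 0.05. The 2 kept erythrocyte markers were lower (median -0.40, 1 with an unadjusted p under 0.05), and no marker was called. Liver and sperm markers were also higher in cHF+F than in cHF, as given above. The liver mean per array ran from -2.3 to -0.52 in cHF and from -2.32 to 1.4 in cHF+ROSI, and the sperm mean from -0.91 to -0.23 and from -0.88 to 2.49. The part of these cell types in the subunit values was not tested.

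**Figure D4:**
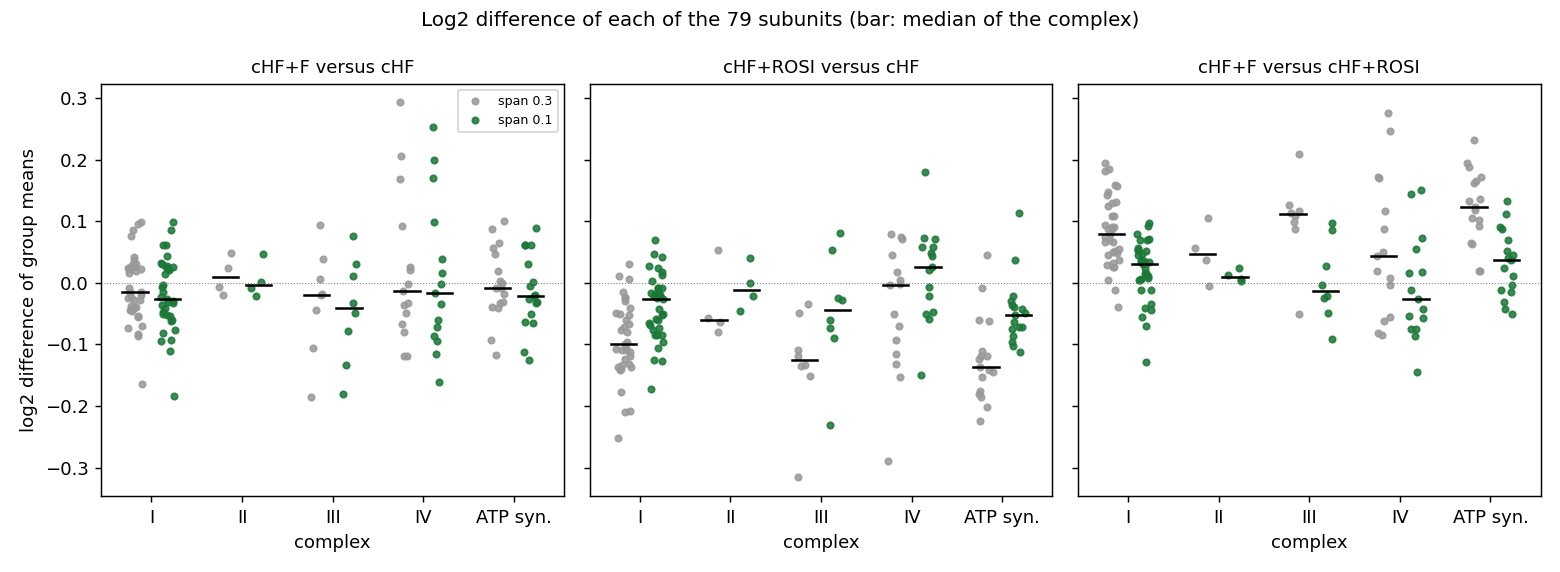
Log2 difference of each of the 79 subunits in the 3 comparisons, grouped by complex, at spans 0.3 and 0.1. The cHF+ROSI minus cHF values lie mostly below 0 at span 0.3, with a median of -0.105, and nearer to 0 at span 0.1, with a median of -0.0302.

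The direct comparison of cHF+F with cHF+ROSI set the treatments against each other. It shares its arrays with the comparisons above. No subunit was called (limma, 0% of all probes). The median was 0.090 at span 0.3, with 9 of 79 lower and 70 higher in cHF+F (45.8% of all probes lower), 0.032 without the array of replicate 3 (20 lower, 43.6% of all probes), and 0.016 at span 0.1 (28 lower, 47.2% of all probes). Of the 269 other bright probes 247 were higher in cHF+F at span 0.3 too, with a median of 0.096. The median of these bright probes was 0.014 without that array and -0.0095 at span 0.1. An unadjusted p under 0.05 was found for 6 of 79 subunits at span 0.3, all higher in cHF+F, beside 6.67% of all probes in either direction and 4.02% higher. They were Cox8b at 0.28 (SE 0.0949, unadjusted p = 0.00725, adjusted p = 0.635, limma), Atp5j2, the f subunit of ATP synthase, at 0.23, Uqcrc1 at 0.21, Atp5pb at 0.19, Cox7a2 at 0.17 and the complex I accessory subunit Ndufa2 at 0.16. Without the array of replicate 3 these were 0.19, 0.15, 0.10, 0.12, 0.17 and 0.10, and 3 of the 79 had an unadjusted p under 0.05 (6.27% of all probes). At span 0.1 none of the 79 had an unadjusted p under 0.05 (6.27% of all probes), and the same differences were 0.15, 0.11, 0.097, 0.091, 0.14 and 0.071. The second Atp5pb probe gave 0.018 and the third 0.038 at span 0.3. With the slide as a block at span 0.3 the count was 20, none called, beside 13.1% of all probes, and the subunit median within the slides ran from -0.082 to 0.54, below 0 on 3 of 8. Cox8b was higher in the cHF+F array on 8 of 8 slides at span 0.3 and on 7 of 8 at span 0.1, with overlapping ranges. Of all kept probes 6, or 0.0376%, did not overlap between these diets, and none of the 79 subunits was among them.

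The muscle and general forms of 3 complex IV subunits were set against each other within each mouse. These differences of log2 ratios remove what both probes share on an array, and they are given without a test. At span 0.1, Cox6a2 minus Cox6a1 was 0.010 ± 0.167 in cHF, 0.35 ± 0.282 in cHF+F and 0.13 ± 0.247 in cHF+ROSI (mean ± SD, n = 8 each). Cox8b minus Cox8a was 0.078 ± 0.12, 0.26 ± 0.167 and 0.068 ± 0.201 in the same order. Cox7a1 minus Cox7a2 ran the other way, at 0.34 ± 0.181, 0.0058 ± 0.181 and 0.16 ± 0.149. Subunits 6a and 8 thus had their highest means in cHF+F and subunit 7a its lowest at span 0.1, with ranges that overlapped in every pair: for subunit 6a, -0.23 to 0.30 in cHF and -0.043 to 0.72 in cHF+F. At span 0.3 subunits 6a and 8 again had their highest means in cHF+F, at 0.39 and 0.28. Cox7a1 minus Cox7a2 was then 0.33 in cHF and nearly the same in the treated diets, at 0.041 in cHF+F and 0.042 in cHF+ROSI. The cHF+ROSI value included -1.03 on the array of replicate 3. Cox6a2 at chr7:127996794-127996853 (mm8) and Cox8b at chr7:140750273-140750332 (mm8) were each read by a single probe.

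Genes that work with the chain but carry other names were read from further lists. Of 7 electron carriers and subunits outside the naming rule, none was called, with medians of -0.052 (cHF+F versus cHF) and -0.16 (cHF+ROSI versus cHF) at span 0.3, and -0.049 and -0.075 at span 0.1. Etfdh, which hands electrons from fatty acid oxidation to ubiquinone, differed by -0.20 in cHF+F (unadjusted p = 0.0239, adjusted p = 0.641, limma) and by -0.18 in cHF+ROSI (unadjusted p = 0.0393, but 0.0577 at span 0.1 and 0.0593 without the array of replicate 3). Cox4i1, the largest nuclear subunit of complex IV, was at 0.042 and -0.19, Cyc1 (cytochrome c1) at 0.064 and -0.11, and Cycs (cytochrome c) at -0.035 and -0.13 at span 0.3. Without that array the cHF+ROSI values of Cox4i1, Cyc1 and Cycs were -0.086, -0.039 and -0.059. The 45 assembly factors had medians of 0.012 and -0.0077. Among them Cox18, which inserts a mitochondrially encoded complex IV subunit into the membrane, differed by -0.15 in cHF+F (unadjusted p = 0.00646, adjusted p = 0.488, limma). The 9 genes of ubiquinone synthesis had medians of -0.0088 and -0.033, with Coq8a at -0.22 in cHF+F (unadjusted p = 0.0299). The 13 regulators of mitochondrial gene expression had medians of 0.0026 and 0.0017. Ppargc1a, the coactivator PGC-1α, was at 0.28 in cHF+F (SE 0.132, unadjusted p = 0.0451, adjusted p = 0.715, limma) and at 0.093 in cHF+ROSI. Atpif1, the inhibitor of ATP synthase, stood at 0.042 and 0.0065. None of these lists held a called gene in any comparison, at either span.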

How the data were processed

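RNA of 24 mice, 8 per diet, was hybridised to Agilent 2-colour arrays, each mouse in Cy5 against a common Cy3 pool, with no dye swap. Per the file headers, the authors deposited spot and local background intensity from Feature Extraction 10.5.1.1, with probe positions in mm8. The authors also deposited a log2 table of Cy5 signals that they had normalized against Cy3. Its 16 cHF and cHF+F columns served as an alternative, and 8 columns of a combined diet, which belong to no sample here, were not used.

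Median spot intensities were corrected by normexp with an offset of 50 and normalized within each array by loess at span 0.3 in limma 3.58.1 (R 4.3.3). Of 45018 spots, 43379 were no controls and gave 41174 probes, of which 15958 had a mean signal over background of at least 2 in both channels and unflagged spots on at least 4 arrays per group. Outlier spots were treated as missing. Groups were taken from the labels and compared by lmFit and eBayes over all kept probes, two-sided, with Benjamini-Hochberg adjustment over all of them and a threshold of 0.05. The precision of a value is limited by the number of arrays. The model was tested on simulated data, with each array drawn independently and with changes larger than the subunit differences reported above. The simulation held no deviations shared by a slide and no deviant array, so it does not show how the model behaves in those cases. No arrays held identical values.

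The members and all gene lists were chosen with earlier results of these data known. Genes named by rule were, per comparison, those called, the 2 highest and 2 lowest of each complex and the 5 smallest p-values, with all Sdh genes, the genes with tissue forms, Atp5g1 to Atp5g3, Atpif1, Cox4i1, Cyc1, Cycs and Ppargc1a. Of these, the genes with the smallest p-values, except Ndufb3, and the differences within the paired forms are given above. Ndufb3, of complex I, ran from -0.174 to 0.219 for cHF+ROSI versus cHF over the reported fit and the alternatives, and was never called. The other genes named by rule are given in part or not at all. Etfdh, Cox18 and Coq8a were named after their values were seen. Gene names came from the array files, updated through an accession for 12577 kept probes and a current or older name for 2270, while 1111 kept the name in the file or had none. For 19 members with several kept probes the brightest was used.

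Alternatives were a span of 0.1, leaving out each array, other background corrections and scalings, each channel alone, other filters, missing saturated spots, array weights, the mean over probes, the slide as a block, the methods' t-test and the authors' log2 table.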

Additional observations from a re-analysis of the deposited data

Results flagged for a closer look

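A mouse was noted where its gap to the nearest mouse of its diet was a larger part of the group's range than Dixon's 95% limit allows. Chance passes about 1 in 20 groups. Of 300 groups looked at, in medians of complexes and in single genes, 30 passed.

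On the cHF+ROSI array of replicate 3, at span 0.3, the medians of complex III (-0.748) and ATP synthase (-0.642) lay apart, as did Cox6a2 (-0.983), Ndufb10 (-0.914), Atp5g1 (-0.863), Cox5b (-0.853), Atp5c1 (-0.832), Ndufb8 (-0.786) and Uqcrh (-0.726). None of these did at span 0.1. The 269 other probes in the brightest 2% had a median of -0.71 on the same array at span 0.3, and the part of brightness in these values was not tested.

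The mouse of cHF replicate 1 lay apart for Ndufv1 (-0.397 at span 0.3 and -0.361 at span 0.1), Ndufs8 (-0.24 and -0.261), Uqcr10 (0.244 at span 0.3) and Atp5j2 (-0.125 at span 0.1). In cHF+F the mouse of replicate 1 did so for Uqcr10 (0.433 and 0.396), Ndufa5 (0.377 and 0.346), Ndufv1 (-0.406 at span 0.3) and the ATP synthase median (-0.0139 at span 0.1). The cHF+ROSI mouse of the same number did so for Uqcr10 (0.409 at span 0.1). These 3 arrays lay on slide 1.

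The cHF mouse of replicate 3 lay low for Uqcrh (-0.18) and Ndufb8 (-0.0903) at span 0.3. The cHF+F mouse of replicate 5 lay high in complex II (median 0.107 and 0.106 at the spans 0.3 and 0.1) and low for Uqcrh (0.0191 at span 0.1). At span 0.1 the remaining values were 0.0898 for the median of all subunits in cHF+F replicate 3, -0.143 for Uqcrc1 in cHF+F replicate 6 and 0.244 for Ndufa9 in cHF+ROSI replicate 6.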

How the results depend on the processing

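No subunit was called under any alternative in any comparison (limma, or the methods' t-test after Benjamini-Hochberg). The counts of subunits with an unadjusted p under 0.05 moved, from 4 between cHF+F and cHF, 4 between cHF+ROSI and cHF, and 6 between the treated diets (cHF+F versus cHF+ROSI). For cHF+F versus cHF they were 7 at span 0.1 with the cHF+ROSI array of replicate 3 (7.53% of all probes) and 7 without it (1131 of 15958 probes). They were 7 with no background correction and 8 with the processed signals of Feature Extraction. For cHF+F versus cHF+ROSI they were 0 (6.27% of all probes), 2 (993 of 15958 probes), 1 and 2 under the same alternatives in that order, and 3 with the methods' t-test. Where no share over all probes is given, the count is not set against the other probes. Cy5 alone and median centring gave 0 in all 3 comparisons (0.514 to 2.73% of all probes), with medians for cHF+F versus cHF of 0.0508 and -0.0998 in place of -0.0131. With no filter the count for cHF+ROSI versus cHF was 10 (8.73% of all probes). Array weights gave 35 (8.77%) for cHF+ROSI versus cHF and 30 (10.7%) for cHF+F versus cHF+ROSI. The cause was not tested.

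Leaving out 1 array at a time gave medians from -0.0194 to -0.000297 for cHF+F versus cHF (reported value -0.0131), from -0.127 to -0.0422 for cHF+ROSI versus cHF (-0.105) and from 0.0318 to 0.116 for cHF+F versus cHF+ROSI (0.0904). Counts of unadjusted p under 0.05 ran from 2 to 5, 2 to 16 and 3 to 18. In the last 2 comparisons the extremes came without cHF+ROSI replicate 3 (lowest) and replicate 6 (highest). Without cHF+ROSI replicate 3 the shares over all probes were 6.87%, 4.78% and 6.27% in the same order. The shares without replicate 6 are not given here, so the counts of 16 and 18 are not set against all probes.

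The replicate number, which is the slide, as a block gave counts of 23 (9.55% of all probes) for cHF+ROSI versus cHF and 20 (13.1%) for cHF+F versus cHF+ROSI, none called. With span 0.1 and without the cHF+ROSI array of replicate 3, the replicate block gave 11 (12.5%) for cHF+F versus cHF and 10 (9.46%) for cHF+ROSI versus cHF. Same-numbered mice deviated together with a correlation over 0.1 in 6, 7 and 5 of 8 pairs (highest 0.643, lowest -0.109). The fits without the block are given as the reported values and the block beside them. In the Cy3 pool alone, the same on every array, subunits with an unadjusted p under 0.05 numbered 0, 1 and 0 without a block. With the replicate block they numbered 0, 29 and 3, beside 21.2% of all probes for cHF+ROSI versus cHF.

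Over all alternatives, 68 of 1270 values of the genes named by rule changed sign for cHF+F versus cHF, 119 of 1279 for cHF+ROSI versus cHF and 97 of 1199 for cHF+F versus cHF+ROSI. Among genes with an unadjusted p under 0.05, these turned sign where Cy5 was used alone: Uqcrfs1 to 0.0575 (cHF+F versus cHF), Atp5pb to 0.153 and Ndufb6 to 0.236 (cHF+ROSI versus cHF), and Atp5pb to -0.0487 and Cox7a2 to -0.104 (cHF+F versus cHF+ROSI). With median centring Ndufa2 went to -0.00445 (cHF+F versus cHF+ROSI). With the authors' log2 values, 36 of 79 subunits were lower in cHF+F, against 57.9% of all probes (median -0.0247), and none was called, with 3 at an unadjusted p under 0.05 (12.4% of all probes). The lean of the subunits against all probes was thus opposite to that of the reported fit. Of the 19 genes with several probes, the probes differed in sign in 9, 9 and 2 at span 0.3.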
